A study of Mus musculus with 24 samples.

Results

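This section describes 34 genes of the lysosome and of its proton pump, the vacuolar ATPase (V-ATPase), in adipose progenitor cells of the mouse. The genes were chosen by the measured level of 1 of them, Atp6v1h, which is high in 1 group (M_DPP4_neg), and were then completed by function: V-ATPase subunits, lysosomal enzymes and membrane proteins, and their regulator Tfeb. They are 34 of the 27179 genes in the table of the series, and 33 of them passed the filter on low values (10 or more in 3 or more libraries), as did 14517 genes in all.

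RNA sequencing was done on PDGFRb+ cells, cells carrying a receptor of stromal and mural progenitors, that were sorted from white adipose tissue of C57BL/6 mice. The study compared subpopulations, fat depots and sexes in 24 libraries, 3 in each of 8 groups. From gonadal fat came the subpopulations APC and FIP and from inguinal fat DPP4_neg APC and DPP4_pos APC, each from females (F) and males (M), so that M_FIP stands for gonadal FIP cells of males. No group carries a transgene, a deletion or a treatment according to the labels, which give no age and do not say whether the 3 libraries of a group came from separate animals. Spread between libraries, and with it each p-value, may therefore be technical only. The gates that separate FIP from APC are not given in the sources used here. FIP and APC exist only for gonadal fat and the DPP4 labels only for inguinal fat, so that in a comparison of FIP with DPP4_pos or of APC with DPP4_neg the depot and the sort cannot be told apart.

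The V-ATPase pumps protons into lysosomes and other acidic compartments. Its peripheral V1 part hydrolyses ATP in the cytosol, its membrane-embedded V0 part carries the protons, and the accessory proteins Atp6ap1 and Atp6ap2 take part in its assembly. The acid interior activates proteases (cathepsins) and glycosidases that break down material delivered by endocytosis and autophagy. TFEB, a basic helix-loop-helix transcription factor held in the cytosol by mTORC1 when nutrients are plentiful, activates many lysosomal genes through a palindromic element with a CACGTG core. In adipose tissue, lysosomes and autophagy are known for their part in adipocyte differentiation and lipid turnover.

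The element is shown because it is the known common sequence of many of these genes. In RefSeq promoter windows of GRCm38.p6, from 250 bases before to 50 bases after a start site, the 8-letter palindrome TCACGTGA, which reads the same on both strands and contains CACGTG, was found in 7 of the 28 members with a window: Gla, Atp6v1a, Mcoln1, Ctsa, Ctsd, Atp6v0d1 and Atp6v0e. Among all 32851 windows 0.974% held it, and among all 27025 genes with a window 1.12% did. The shorter CACGTG was found in 11 of the 28 members and in 8.09% of all genes with a window. Of the members holding the palindrome, the 4 that were called in most of the 11 tested comparisons are printed here on the strand of the gene, with the palindrome in capitals.
Gla: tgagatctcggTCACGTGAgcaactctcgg
Atp6v1a: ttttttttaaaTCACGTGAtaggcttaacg
Mcoln1: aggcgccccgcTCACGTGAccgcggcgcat
Ctsa: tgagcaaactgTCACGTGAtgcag
The Gla stretch lies at chrX:134601182-134601211 on the minus strand, its palindrome beginning 195 bases before the RefSeq start, in a region that GENCODE M21 also annotates as a UTR exon of the neighbouring gene Hnrnph2. A further copy in Gla begins 228 bases before that start. The Atp6v1a stretch lies at chr16:44139373-44139402 on the minus strand, inside the gene but in none of its annotated exons, and its palindrome begins 132 bases before 1 of its RefSeq starts. The Mcoln1 stretch lies at chr8:3500462-3500491 on the plus strand and the Ctsa stretch at chr2:164833749-164833772 on the plus strand. Their palindromes begin 46 and 13 bases before a RefSeq start, and both stretches overlap a UTR exon of other transcripts of the same gene in GENCODE M21. A match of these letters is a description and no measure of binding. Atp6v0d2, Atp6v1b2, Atp6v1c1, Atp6v1g1, Atp6v1h and Ctsb had no window in the table.

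Each library held 9152470 to 18221692 reads in genes, and values are normalised counts, that is reads divided by 1 size factor per library. Correlation of log2 values over genes was 0.982 to 0.992 between libraries of a group. Dpp4 itself stood at 14883 to 20848 in the DPP4_pos groups, 235 to 258 in M_DPP4_neg and 1150 to 4213 in F_DPP4_neg, and Pdgfrb was at 1730 to 6277 in all libraries. Markers of other cell types were present in every group. The 10 epithelial markers summed to 10517 to 25463 in F_DPP4_neg and to at most 984 in any other library. The highest sums were 4254 for mural markers (M_APC), 3252 for endothelial (M_FIP), 2935 for adipocyte (M_DPP4_neg) and 1783 for mesothelial ones (F_APC). Mural sums were 2039 to 2278 in M_FIP against 640 to 807 in M_DPP4_pos, and 960 to 993 in F_FIP against 1391 to 1812 in F_DPP4_pos. The 13 macrophage markers summed to 184 to 1646. The 15 immediate early genes, induced when tissue is taken apart, had sums of 477841 to 499348 in F_APC and 435705 to 461313 in M_APC against 135942 to 144553 in M_DPP4_pos. These sums differ between the groups of every comparison of depots below, where the gonadal group also had higher sums of mesothelial markers, and of endothelial ones except for F_FIP (988 to 1172) against F_DPP4_pos (1816 to 1896); their part in the differences was not tested. In bulk samples, fewer cells of a type and less RNA per cell cannot be told apart.

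Atp6v1h encodes the H subunit, a regulatory part of V1, and lies at chromosome 1, 5082978 to 5163213 (GRCm38.p6). Its values chose the members and are given as a description. In M_DPP4_neg the libraries stood at 2952, 2408 and 2477, and in M_DPP4_pos at 1595, 1715 and 1732. The female inguinal groups followed, with 1046, 1039 and 891 in F_DPP4_neg and 924, 914 and 898 in F_DPP4_pos. All 4 gonadal groups were lower, with 747, 801 and 739.9 in M_APC, 727, 692 and 685 in M_FIP, 660.4, 686 and 679 in F_APC and 621, 631 and 590.2 in F_FIP. The 3 libraries of M_DPP4_neg lay above all others, and M_DPP4_pos above the remaining 6 groups. In the order of the means, libraries overlapped between the neighbours F_DPP4_neg and F_DPP4_pos and between M_FIP and F_APC, and every other pair of neighbours was separate. The mean in M_DPP4_neg was 4.25 times that in F_FIP, and its log2 level was 1.6 above the mean of the other 7 groups. Replicate 1 of M_DPP4_neg was the highest library, and without it that difference was 1.51.

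**Figure D1:**
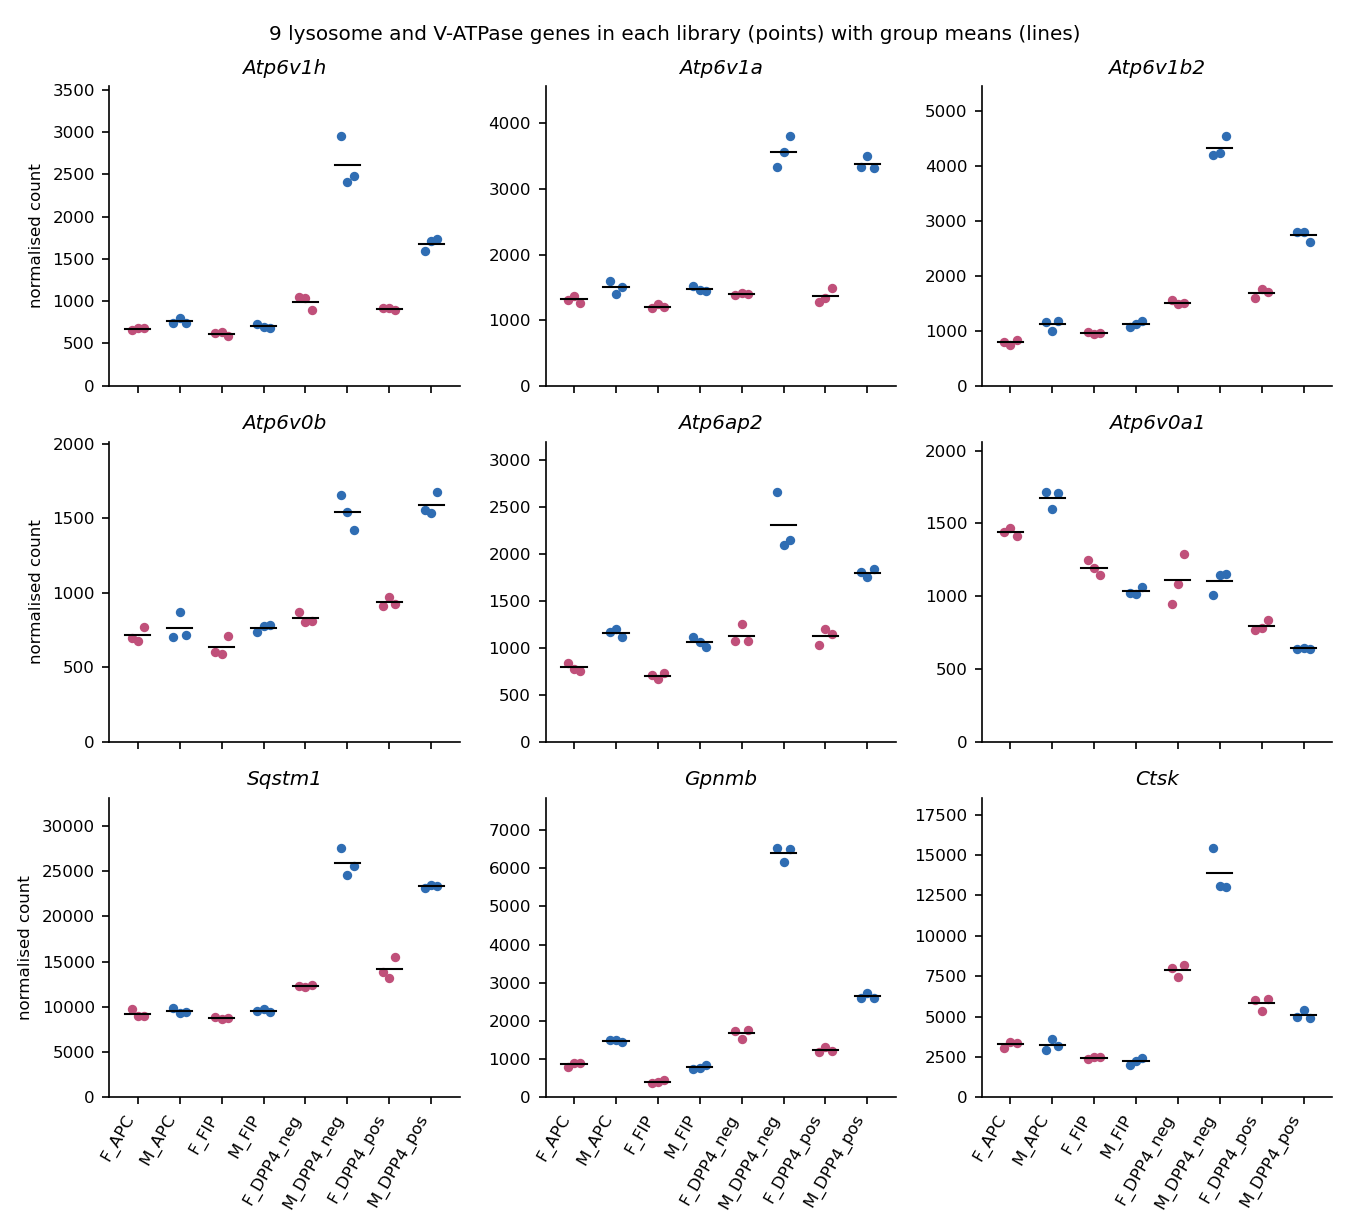
Normalised counts (y axis, linear from 0) of 9 members in each library (points; females pink, males blue) and the group mean (line), by group on the x axis. Atp6v1h, Atp6v1a, Atp6v1b2, Atp6v0b, Atp6ap2, Sqstm1 and Gpnmb were highest in the male inguinal groups, and Atp6v0a1 was lowest in M_DPP4_pos, at 639 to 643.

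Leaving out Atp6v1h, whose level chose that group, M_DPP4_neg was the highest group for 15 of the 32 other tested members, and M_DPP4_pos was the highest for 11. Among all tested genes these groups were the highest for 15.7% and 17.8%, and since the members were completed with earlier results known nothing is read from this. F_DPP4_neg, F_DPP4_pos and M_APC were the highest group for 2 members each. The lowest group was F_FIP for 13 members, M_FIP for 8 and M_APC for 6, and M_DPP4_neg for none of the 33. Since the members were picked for a gene high in M_DPP4_neg, its 3 comparisons are described without a test, and the 11 others were tested with limma on log2(value + 1). Calls were made at 0.05 on p-values adjusted by Benjamini and Hochberg's method over all 14517 tested genes. A gene's direction is given for the group named first, and differences are on the log2(value + 1) scale with their standard errors (SE).

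Calls of members leaned to 1 direction between depots, in both sexes, and between the sexes in inguinal DPP4_pos cells. In DPP4_pos cells 19 of 33 members were higher in males and 2 lower, where 27.1% and 25.5% of all tested genes were called in those directions. In males 30 members were lower and 2 higher in FIP than in DPP4_pos cells, against 32.4% and 32.6% of all genes. In females the same comparison called 23 lower and 1 higher, against 22.6% and 22.1%. The comparisons of FIP with DPP4_pos cells and of the sexes in DPP4_pos cells share the M_DPP4_pos and F_DPP4_pos libraries. The members' median log2 difference was 0.27 between the sexes in DPP4_pos cells (all genes 0.00), -0.51 for FIP minus DPP4_pos in males (all genes 0.02) and -0.29 in females (all genes 0.01). Atp6v1h is counted in each of these, and the members were completed with earlier results known. Nothing is therefore read from these counts and medians beyond the description. Markers of other cell types moved with the comparison of the sexes in DPP4_pos cells: 7 of 7 adipocyte markers were higher in males (sums of 235 to 387 against 72.7 to 139), 7 of 10 epithelial markers were lower (133 to 144 against 621 to 984), and of 15 immediate early genes 8 were lower and 5 higher. Endothelial sums were 435 to 520 in males against 1816 to 1896 in females, and mural sums 640 to 807 against 1391 to 1812. Mesothelial sums were small and higher in males, at 22.0 to 46.3 against 17.0 to 21.5. The part of these markers in the members' differences was not tested.

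In gonadal APC as many members were called between the sexes as in DPP4_pos cells, but in both directions: 9 members were higher and 12 lower in males than in females, against 22.4% and 22.1% of all genes, and in FIP 11 were higher and 5 lower, against 18.2% and 19.0%. FIP compared with APC gave 2 higher and 14 lower members in females (all genes 21.3% and 18.1%) and 3 higher and 8 lower in males (all genes 18.9% and 18.0%). Adipocyte markers summed to 1478 to 1659 in F_APC against 170 to 234 in F_FIP, and to 1181 to 1475 in M_APC against 448 to 514 in M_FIP. Mesothelial, mural, macrophage and immediate early sums were also higher in APC in both sexes. Epithelial sums were higher in APC of females and lower in APC of males. The part of these markers was not tested. DPP4_pos compared with DPP4_neg cells of females gave 5 higher and 8 lower (all genes 22.6% and 27.1%), and APC compared with DPP4_neg cells of females gave 3 higher and 14 lower (all genes 26.8% and 32.2%). In DPP4_pos minus DPP4_neg of females 10 of 10 epithelial, 13 of 13 macrophage and 6 of 7 adipocyte markers were lower, and the epithelial markers were lower in APC minus DPP4_neg too (10 of 10). Their part in the members' calls, which in DPP4_pos minus DPP4_neg include Gla, Psap, Ctsk and Gpnmb as lower, was not tested. With replicate numbers as a block and these libraries alone, DPP4_pos minus DPP4_neg of females kept 9 of its 13 calls, and 10 members were called. In the fit without the block the members' shares there, 15.2% higher and 24.2% lower, were under those of all genes, whereas in FIP minus APC of females 42.4% of the members were lower.

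Deposited values sum to more in the male inguinal libraries (16098279 to 16532037) than in the gonadal ones (11967929 to 13260502). Scaled to equal totals, the median over all genes shifted by 0.39 in FIP minus DPP4_pos of males, and the count of members there went from 2 higher and 30 lower to 3 higher and 15 lower. The members' median relative to that of all genes was nearly the same, -0.52 before and -0.51 after. For the sexes in DPP4_pos cells the split became 14 higher and 5 lower, with the members' median 0.27 above that of all genes before and after. Here and below, counts under another scaling have no share of all genes under that scaling beside them. They cannot be weighed against that share.

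**Figure D2:**
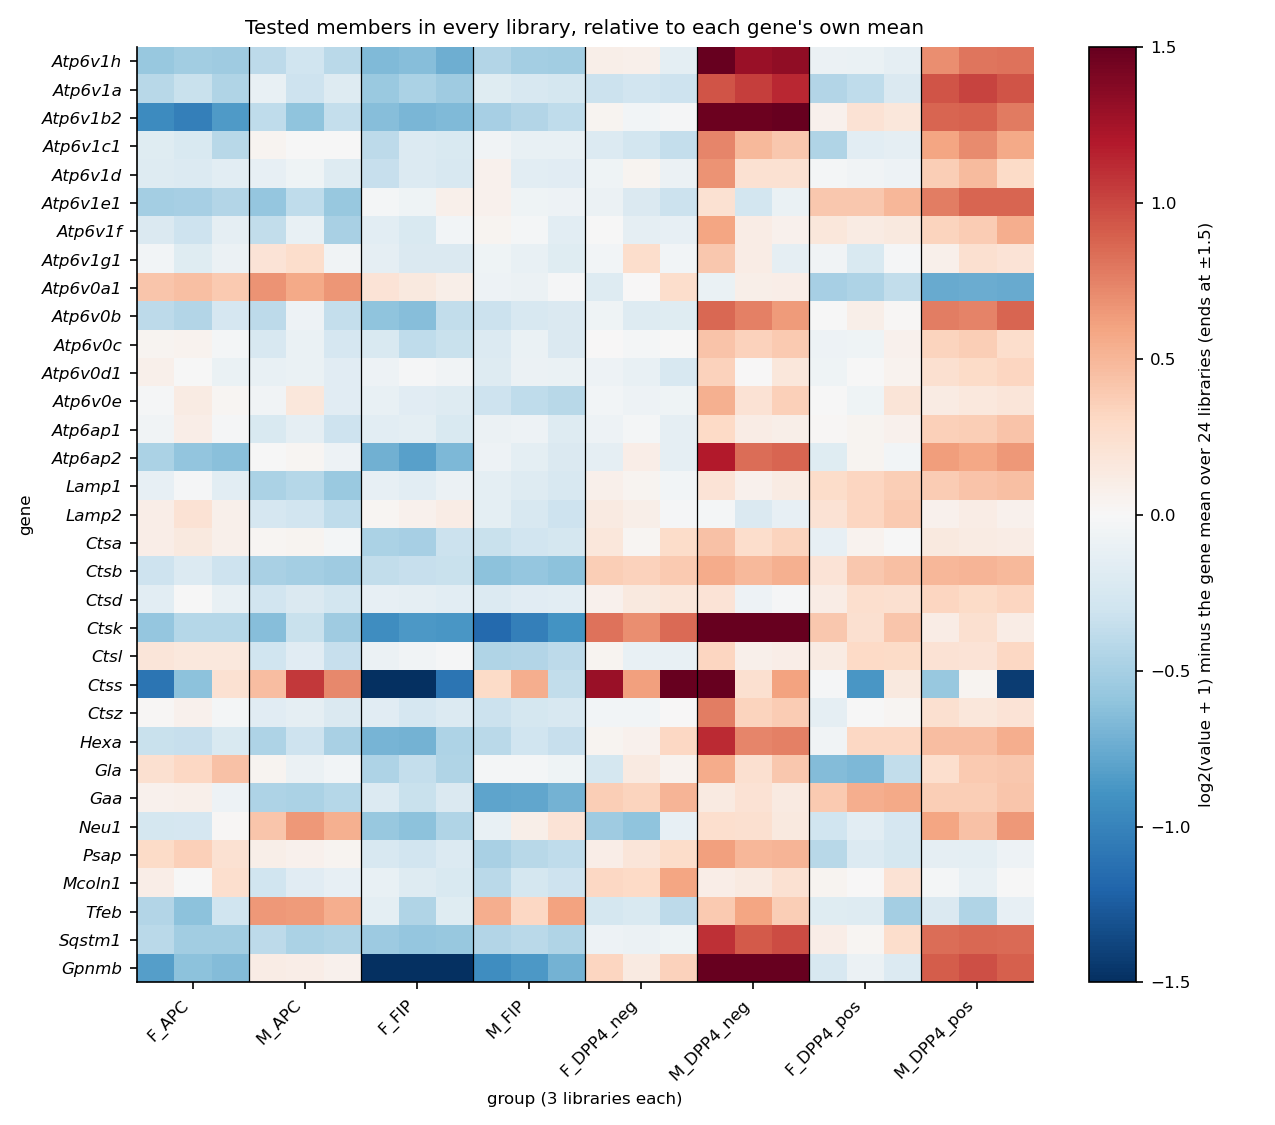
The 33 tested members (rows) in all 24 libraries (columns, 3 per group), as log2(value + 1) minus the gene's own mean over the libraries, with the color scale ending at 1.5 on either side. The 3 libraries of a group resemble each other in most rows, Ctss being the exception. M_DPP4_neg and M_DPP4_pos hold the highest group mean of 27 of the 33 genes (16 and 11). The 16 include Atp6v1h, whose level chose M_DPP4_neg. Among all tested genes these groups were the highest for 15.7% and 17.8%, and nothing is read from this.

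The cytosolic V1 subunits were called in 1 direction between the sexes in DPP4_pos cells and between the depots of males. All 8 tested V1 genes were higher in males among DPP4_pos cells, where 27.1% of all tested genes were. All 8 were lower in FIP than in DPP4_pos cells of males, where 32.4% of all genes were. Atp6v1h, whose level chose the members, is 1 of the 8, and nothing is read from counts of so few genes. Scaled to equal totals, 6 of the 8 were still called higher in the first comparison, and in the second 5 were called lower while Atp6v1g1 turned to 0.08. In FIP minus DPP4_pos of females 5 of 8 were lower (all genes 22.6%) and the other 3 did not pass the test. Under either scaling 3 were lower. Some calls among the smaller of these differences were lost when 1 library was left out. Between the sexes, Atp6v1f and Atp6v1g1 were no longer called without any 1 library of F_DPP4_pos or without replicate 2 or 3 of M_DPP4_pos, and each was as low as 0.21. In the depot comparison of males, Atp6v1g1 was at -0.26 to -0.30 and not called without replicate 2 or 3 of M_FIP or of M_DPP4_pos.

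Atp6v1a, the catalytic A subunit (chromosome 16, 44085402 to 44139702), stood at 3335, 3499 and 3318 in M_DPP4_pos and at 1276, 1333 and 1495 in F_DPP4_pos. In gonadal FIP it was at 1521, 1464 and 1447 in males and 1178, 1242 and 1197 in females. M_DPP4_pos was thus apart from the other tested groups, which spanned 1178 to 1601. The male to female ratio in DPP4_pos cells was 2.47 (log2 1.31 ± 0.07 SE, adjusted p = 3.05e-14), and FIP minus DPP4_pos of males was -1.19 ± 0.07 (adjusted p = 3.81e-14). In FIP cells the sex difference was 0.29 ± 0.07. Atp6v1a carries the palindrome printed above.

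Atp6v1b2, the ubiquitous B subunit that shares the ATP-binding ring with A (chromosome 8, 69088736 to 69113718), was at 2799, 2807 and 2621 in M_DPP4_pos and 1591, 1771 and 1712 in F_DPP4_pos. It was at 1078, 1126 and 1175 in M_FIP and 975, 948 and 960.4 in F_FIP. In F_APC it was at 789, 746 and 843, against 1564, 1484 and 1505 in F_DPP4_neg, and no library of these 2 groups overlapped. FIP minus DPP4_pos was -1.28 ± 0.07 in males (adjusted p = 1.95e-14) and -0.81 ± 0.07 in females (adjusted p = 3.39e-10), and APC minus DPP4_neg of females was -0.94 ± 0.07 (adjusted p = 1.32e-11). Atp6v1a was at -0.18 in FIP minus DPP4_pos of females, a call that was lost without replicate 3 of F_DPP4_pos (-0.11), replicate 1 of F_FIP or replicate 3 of F_FIP, and also with the libraries of this comparison only, under quantile normalisation and under equal totals (-0.0020). The Atp6v1f call there, at -0.29, was lost without any 1 of its 6 libraries but replicate 3 of F_FIP (-0.25 to -0.30).

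For Atp6v1h the male minus female difference in DPP4_pos cells was 0.88 ± 0.07 (adjusted p = 3.36e-10) with no overlap of libraries. FIP minus DPP4_pos was -1.26 ± 0.07 in males (adjusted p = 1.14e-13) and -0.57 ± 0.07 in females. FIP and APC did not differ past the test in either sex (-0.14 in females, -0.12 in males). Atp6v1c1, the C subunit that joins V1 to V0, was 0.87 higher on the log2 scale in male than in female DPP4_pos cells and at -0.03 for FIP minus DPP4_pos of females, which did not pass the test. Atp6v1d, Atp6v1e1, Atp6v1f and Atp6v1g1, subunits of the central and peripheral stalks, had the smallest sex differences of the 8 V1 genes in DPP4_pos cells, from 0.27 to 0.43.

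Atp6v1e1, a peripheral stalk subunit, differed between subpopulations within a depot in all 3 tested comparisons of that kind. Among the other V1 genes, Atp6v1b2 was called in FIP minus APC of females (0.28 ± 0.07) and Atp6v1f in that of males (0.28), a call that was lost under most alternatives, with values down to 0.19 without replicate 3 of M_APC. Atp6v1e1 stood at 650.5, 659 and 687 in F_APC and 914, 889 and 982 in F_FIP, and at 873, 801 and 743 in F_DPP4_neg and 1235, 1234 and 1314 in F_DPP4_pos. FIP exceeded APC by 0.48 ± 0.09 in females (adjusted p = 0.000151) and 0.49 ± 0.09 in males (adjusted p = 0.000138), and DPP4_pos exceeded DPP4_neg cells of females by 0.65 ± 0.09 (adjusted p = 1.87e-06). The libraries of the groups compared did not overlap.

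The membrane part V0 was called in both directions. Of its 5 tested subunits, 3 were higher and 1 lower in male DPP4_pos cells (all genes 27.1% and 25.5%). In FIP minus DPP4_pos of males 4 were lower and 1 higher (all genes 32.4% and 32.6%). Under equal totals these counts became 2 higher and 1 lower, and 1 lower and 1 higher. Nothing is read from counts of so few genes. Atp6v0b, a proteolipid of the rotating ring, had the largest sex difference, 0.76 ± 0.08 in DPP4_pos cells, and was -1.05 in FIP minus DPP4_pos of males. Atp6v0c, the main proteolipid, was 0.34 and -0.49 in these comparisons, Atp6v0d1 was 0.29 and -0.41, and Atp6v0e was 0.11, which did not pass the test, and -0.52.

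Atp6v0a1, an isoform of the a subunit that helps target the pump to its membrane (chromosome 11, 101009422 to 101063719), ran the other way. It stood at 639, 643 and 639.9 in M_DPP4_pos and 765, 781 and 834 in F_DPP4_pos, and at 1024, 1016 and 1064 in M_FIP and 1247, 1193 and 1146 in F_FIP. The APC groups were the highest, with 1718, 1602 and 1708 in M_APC and 1442, 1470 and 1413 in F_APC. FIP exceeded DPP4_pos by 0.69 ± 0.08 in males (adjusted p = 3.53e-08) and 0.59 ± 0.08 in females (adjusted p = 1.08e-06), while FIP minus APC was -0.70 ± 0.08 in males (adjusted p = 1.01e-07) and -0.27 ± 0.08 in females. Atp6v0a1 was called in all 9 tested comparisons of 2 groups, 4 times higher and 5 times lower. Its calls between the sexes in APC (0.22) and FIP (-0.21) were lost without replicate 1 or 3 of either APC group (0.20 to 0.22) and without any 1 FIP library but replicate 3 of F_FIP (-0.18 to -0.23).

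Atp6v0d2, a d-subunit isoform known from osteoclasts and macrophages, did not pass the filter. It had 0 reads in all 6 libraries of F_APC and F_FIP, where 3 reads would be worth a value of 2.49 to 4.15. Its highest values were 11.2, 13.3 and 7.4 in M_DPP4_neg and 6.78, 9.23 and 4.41 in M_DPP4_pos. At this depth no comparison of it was made.

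Of the accessory proteins, Atp6ap2, also known as the prorenin receptor, was higher in males in all 3 tested subpopulations: 0.55 ± 0.08 in APC, 0.60 ± 0.08 in FIP and 0.68 ± 0.08 in DPP4_pos cells. It is on chromosome X (12587759 to 12617051). Its levels were 1804, 1748 and 1843 in M_DPP4_pos against 1029, 1202 and 1142 in F_DPP4_pos, and 1115, 1057 and 1010 in M_FIP against 707, 664 and 730.5 in F_FIP. Atp6ap1, also on the X chromosome, differed in sign with the subpopulation, at -0.23 ± 0.06 in APC, 0.05 in FIP, which did not pass the test, and 0.34 ± 0.06 in DPP4_pos cells. Its call in APC was lost under quantile normalisation and under equal totals. Over the alternatives the difference in APC ranged from -0.28 to -0.12.

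**Figure D3:**
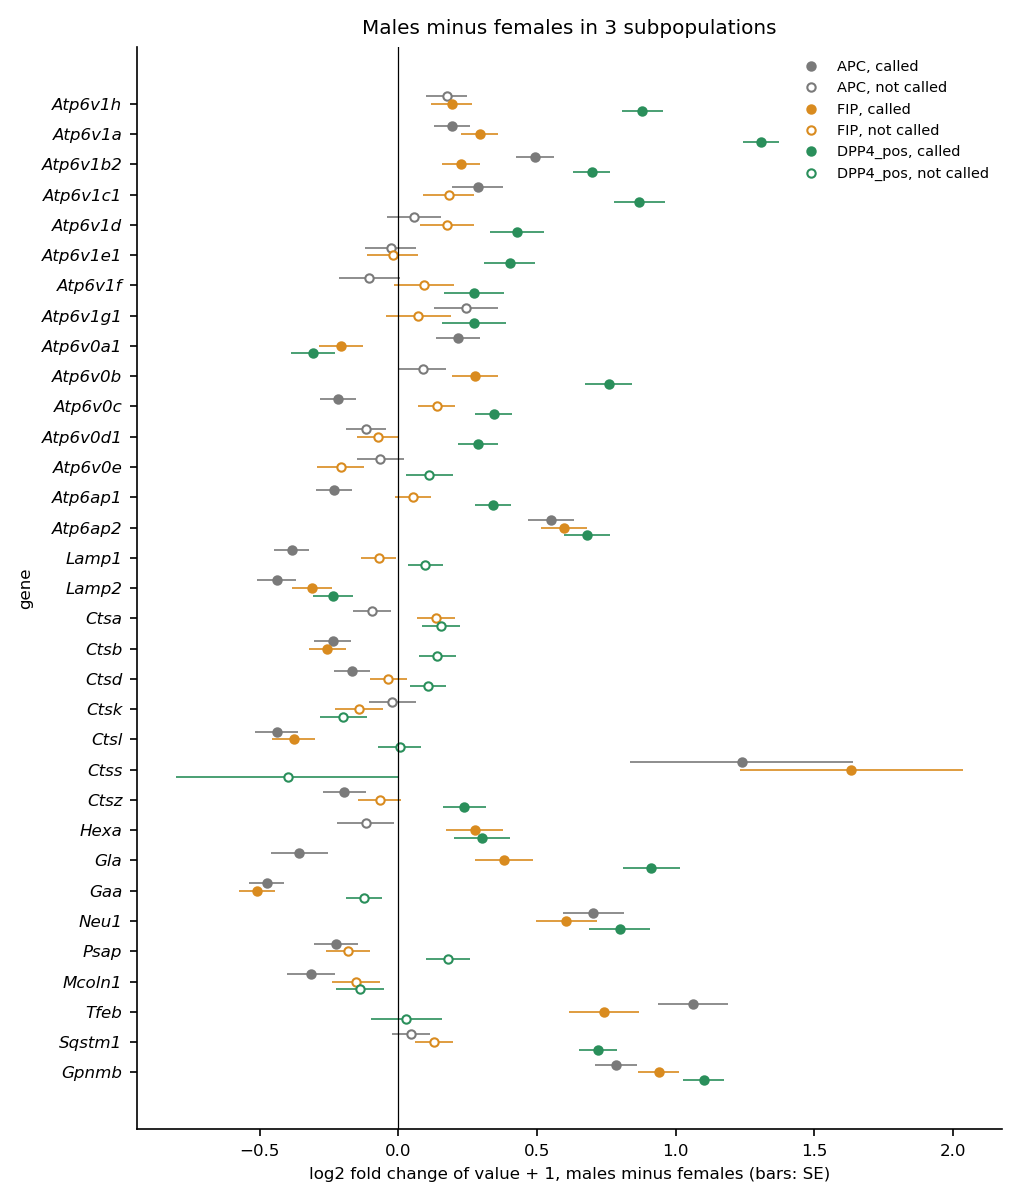
Male minus female difference of each tested member (x axis, log2 of value + 1) in APC, FIP and DPP4_pos cells, with bars for the SE and filled points for genes called by limma. In DPP4_pos cells the V-ATPase genes sit right of 0 except Atp6v0a1, at -0.31, while in APC and FIP most of them lie near 0.

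The lysosomal membrane proteins did not follow the pump in the comparison of sexes. Lamp1 and Lamp2, the abundant glycoproteins that line the lysosomal membrane, were lower in males in APC, at -0.38 and -0.44 on the log2 scale. Lamp2 was also lower in male FIP (-0.31) and male DPP4_pos cells (-0.23), where Lamp1 did not pass the test (-0.07 and 0.10). Lamp2 stood at 12396, 13357 and 13998 in F_DPP4_pos and 11150, 11453 and 11140 in M_DPP4_pos, and these did not overlap. Mcoln1, a lysosomal calcium channel, was called lower in 6 of the 9 tested comparisons of 2 groups and higher in none. Of these calls, FIP minus DPP4_pos of females was lost without replicate 3 of F_FIP (-0.24) or of F_DPP4_pos (-0.20), FIP minus APC of females without replicate 3 of F_APC (-0.22), and APC minus DPP4_neg of females without replicate 3 of F_DPP4_neg (-0.19). All 3 were lower in FIP than in DPP4_pos cells of both sexes, from -0.24 to -0.61. Of all genes 22.6% were called lower there in females and 32.4% in males. Lamp2 turned to 0.05 in females and 0.09 in males under quantile normalisation. In males Lamp2 and Mcoln1 turned to 0.06 and 0.10 when totals were made equal.

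Of 7 cathepsins, 6 were called lower in gonadal FIP than in inguinal DPP4_pos cells in each sex. Of all genes 22.6% were called lower in females and 32.4% in males. With totals made equal 5 cathepsins were lower in females and 3 in males, where 1 was then higher. Nothing is read from counts of so few genes. Ctsk, a collagen-degrading cysteine protease (chromosome 3, 95499210 to 95509387), had the largest difference among the called cathepsins that were well covered. It stood at 2383, 2520 and 2496 in F_FIP against 6039, 5373 and 6095 in F_DPP4_pos, and at 2032, 2238 and 2454 in M_FIP against 4949, 5386 and 4912 in M_DPP4_pos. In APC it was at 3048, 3403 and 3390 in females and 2939, 3625 and 3160 in males, and at 8038, 7429 and 8196 in F_DPP4_neg. The difference FIP minus DPP4_pos was -1.24 ± 0.09 in females (adjusted p = 9.26e-12) and -1.18 ± 0.09 in males (adjusted p = 7.06e-12), and APC minus DPP4_neg of females was -1.27 ± 0.09 (adjusted p = 3.31e-12). Within the gonadal depot FIP was below APC, by -0.53 ± 0.09 in males (adjusted p = 1.75e-05) and -0.41 in females. The sexes did not differ past the test in APC, FIP or DPP4_pos cells (-0.02, -0.14 and -0.20).

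Ctsb, the most widely expressed cysteine cathepsin, was lower in FIP by -1.10 ± 0.07 in males and -0.70 ± 0.07 in females. The aspartic protease Ctsd and the cysteine protease Ctsl were also lower in both sexes, from -0.29 to -0.67. Ctsa, the protective protein that keeps neuraminidase and beta-galactosidase stable, differed between the gonadal subpopulations. It was at 1128, 1110 and 1255 in F_FIP and 1671, 1737 and 1645 in F_APC, with no overlap and a difference of -0.53 ± 0.07 (adjusted p = 5.55e-07). Ctsz, a carboxypeptidase, was -0.48 in FIP minus DPP4_pos of males and -0.18 in females, where it did not pass the test.

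Ctss, a cathepsin of antigen-presenting cells that lies next to Ctsk (95526786 to 95556405), was rare, with 7 to 87 reads in a library. It stood at 5.82, 6.82 and 9.95 in F_FIP and 27.4, 33 and 17.1 in M_FIP, and at 9.9, 14.3 and 26.3 in F_APC and 31.1, 47.5 and 37.3 in M_APC. In the inguinal groups it was at 22, 11.7 and 24.8 in F_DPP4_pos, 56.4, 34.8 and 71.8 in F_DPP4_neg and 14.7, 23.1 and 7.71 in M_DPP4_pos. Libraries of each called pair of groups did not overlap. Males were higher in FIP by 1.63 ± 0.40 (adjusted p = 0.00221) and in APC by 1.24 ± 0.40 (adjusted p = 0.0141), and DPP4_pos minus DPP4_neg of females was -1.44 ± 0.40 (adjusted p = 0.00437). APC minus DPP4_neg of females was -1.68 ± 0.40 (adjusted p = 0.000881) and FIP minus DPP4_pos of females was -1.23 ± 0.40 (adjusted p = 0.0149). The call in APC was lost without replicate 1 of F_APC (0.94) or replicate 2 of M_APC (1.08), and the last one without replicate 1 of F_FIP (-1.08), replicate 1 of F_DPP4_pos (-1.11) or replicate 3 of F_DPP4_pos (-1.03).

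Macrophage markers moved with Ctss. Their sums were 184 to 247 in F_FIP and 439 to 619 in M_FIP, and 11 of 13 markers were higher in male FIP. In APC the sums were 404 to 798 in females and 678 to 939 in males, and 2 markers were higher in males. The sums were 775 to 1646 in F_DPP4_neg and 331 to 404 in F_DPP4_pos, and 13 of 13 were lower in DPP4_pos cells. No marker of this list was at 0 in any group. Their part in the Ctss differences was not tested.

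Glycosidases differed gene by gene. Gla, alpha-galactosidase A, is on chromosome X (134588169 to 134601005) and carries the palindrome in 2 copies. It was at 305, 321 and 349.8 in F_APC and 187, 200.4 and 189 in F_FIP, at 215, 282 and 268 in F_DPP4_neg and 164, 162 and 199 in F_DPP4_pos, and at 307, 338 and 343 in M_DPP4_pos. FIP minus APC of females was -0.75 ± 0.10 (adjusted p = 1.9e-06), DPP4_pos minus DPP4_neg of females was -0.54 ± 0.10 (adjusted p = 0.000112), and males exceeded females in DPP4_pos cells by 0.91 ± 0.10 (adjusted p = 6.73e-08). The libraries of each of these pairs did not overlap. In males FIP and APC were at 253, 252 and 246 and 266, 243 and 251, which overlapped. The male minus female difference was -0.36 in APC and 0.38 in FIP, both called, so that the sign differed with the subpopulation.

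Neu1, the lysosomal sialidase, was higher in males in the 3 tested subpopulations. It was at 516, 606 and 557 in M_APC and 319.8, 322 and 389.9 in F_APC, and at 357, 408 and 445 in M_FIP and 260.1, 252 and 281 in F_FIP, with no overlap. The differences were 0.70 ± 0.11 in APC (adjusted p = 9.33e-06), 0.61 ± 0.11 in FIP (adjusted p = 9.13e-05) and 0.80 ± 0.11 in DPP4_pos cells (adjusted p = 1.19e-06). Gaa, the acid alpha-glucosidase that degrades glycogen, went the opposite way in gonadal cells, at -0.48 ± 0.06 in APC and -0.51 ± 0.06 in FIP.

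Hexa, the alpha subunit of beta-hexosaminidase, was at 1108, 1095 and 1302 in F_FIP and 1735, 2230 and 2223 in F_DPP4_pos, which did not overlap (-0.81 ± 0.10, adjusted p = 3.49e-07). Psap, the precursor of the saposins that activate glycosphingolipid breakdown, was the most abundant member, also per kilobase of exon. It was at 36181, 38085 and 34704 in F_APC and 25048, 24350 and 25663 in F_FIP, and at 31499, 31055 and 30647 in M_APC and 21211, 22189 and 22820 in M_FIP. In inguinal fat of females it was at 31874, 33778 and 36047 in F_DPP4_neg and 22178, 25743 and 24676 in F_DPP4_pos. In none of these pairs did libraries overlap, and the FIP minus APC differences were -0.54 ± 0.08 in females (adjusted p = 6.23e-06) and -0.49 ± 0.08 in males (adjusted p = 2.05e-05), beside -0.49 ± 0.08 for DPP4_pos minus DPP4_neg of females (adjusted p = 1.55e-05).

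Gpnmb, a transmembrane glycoprotein of lysosomes and melanosomes that is a marker of lysosomal stress (chromosome 6, 49036518 to 49058182), had the widest range of the tested members, 15.7 times between the highest and the lowest group mean. It was at 372, 409 and 442 in F_FIP and 729, 764 and 855 in M_FIP, at 788, 906 and 890.4 in F_APC and 1504, 1492 and 1455 in M_APC, and at 1184, 1307 and 1213 in F_DPP4_pos and 2615, 2725 and 2605 in M_DPP4_pos. F_DPP4_neg stood at 1743, 1531 and 1768. Every tested pair of groups was separate. FIP minus DPP4_pos was -1.76 ± 0.07 in males (adjusted p = 3.08e-16) and -1.60 ± 0.07 in females (adjusted p = 5.97e-15), and FIP minus APC was -1.08 ± 0.07 in females (adjusted p = 1.84e-11) and -0.92 ± 0.07 in males (adjusted p = 2.22e-10). APC minus DPP4_neg of females was -0.96 ± 0.07 (adjusted p = 5.09e-11).

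Gpnmb was higher in males in all 3 tested subpopulations, by 0.79 ± 0.07 in APC (adjusted p = 4.63e-09), 0.94 ± 0.07 in FIP (adjusted p = 3.13e-10) and 1.10 ± 0.07 in DPP4_pos cells (adjusted p = 9.34e-12). Macrophages also express this gene. Macrophage marker sums were 294 to 371 in M_DPP4_pos and 331 to 404 in F_DPP4_pos, with 2 markers higher and 5 lower in males. In FIP the sums were 439 to 619 in males and 184 to 247 in females, with 11 of 13 markers higher in males. Of the 13 markers 12 were lower in FIP minus APC, 10 in FIP minus DPP4_pos and 9 in APC minus DPP4_neg of females. There and in FIP the markers moved in the direction of Gpnmb. The part of the markers was not tested in any of these comparisons, DPP4_pos cells included.

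Sqstm1 (p62), the cargo receptor that carries ubiquitinated material into autophagosomes, lies on chromosome 11 (50200152 to 50210820). It was at 23154, 23513 and 23342 in M_DPP4_pos and 9539, 9746 and 9473 in M_FIP, with no overlap, and at 13826, 13203 and 15564 in F_DPP4_pos and 8888, 8670 and 8746 in F_FIP. FIP minus DPP4_pos was -1.28 ± 0.07 in males (adjusted p = 2.22e-14) and -0.69 ± 0.07 in females. Males were higher in DPP4_pos cells (0.72 ± 0.07), and the sexes did not differ past the test in APC (0.04) or FIP (0.13).

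Tfeb, the regulator, was low. It did not follow the pump between the sexes in DPP4_pos cells or in FIP minus DPP4_pos of males. It was at 204, 203 and 189 in M_APC and 95, 84.4 and 105 in F_APC, at 189.9, 161 and 197 in M_FIP and 117, 94.7 and 114 in F_FIP, and at 111, 94.6 and 119 in M_DPP4_pos and 114, 113 and 90.9 in F_DPP4_pos. In DPP4_neg cells, given as levels only, Tfeb was at 170, 196 and 168 in males and 108, 111 and 98.3 in females. The sexes were separate in gonadal and DPP4_neg cells and overlapped in DPP4_pos cells. Males exceeded females by 1.06 ± 0.13 in APC (adjusted p = 1.86e-07) and 0.74 ± 0.13 in FIP (adjusted p = 4.63e-05), and in DPP4_pos cells the difference was 0.03, which did not pass the test. FIP minus DPP4_pos of males was 0.75 ± 0.13 (adjusted p = 1.26e-05), opposite in sign to 30 of the 32 members called there. The mRNA level says nothing of where the protein is.

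**Figure D4:**
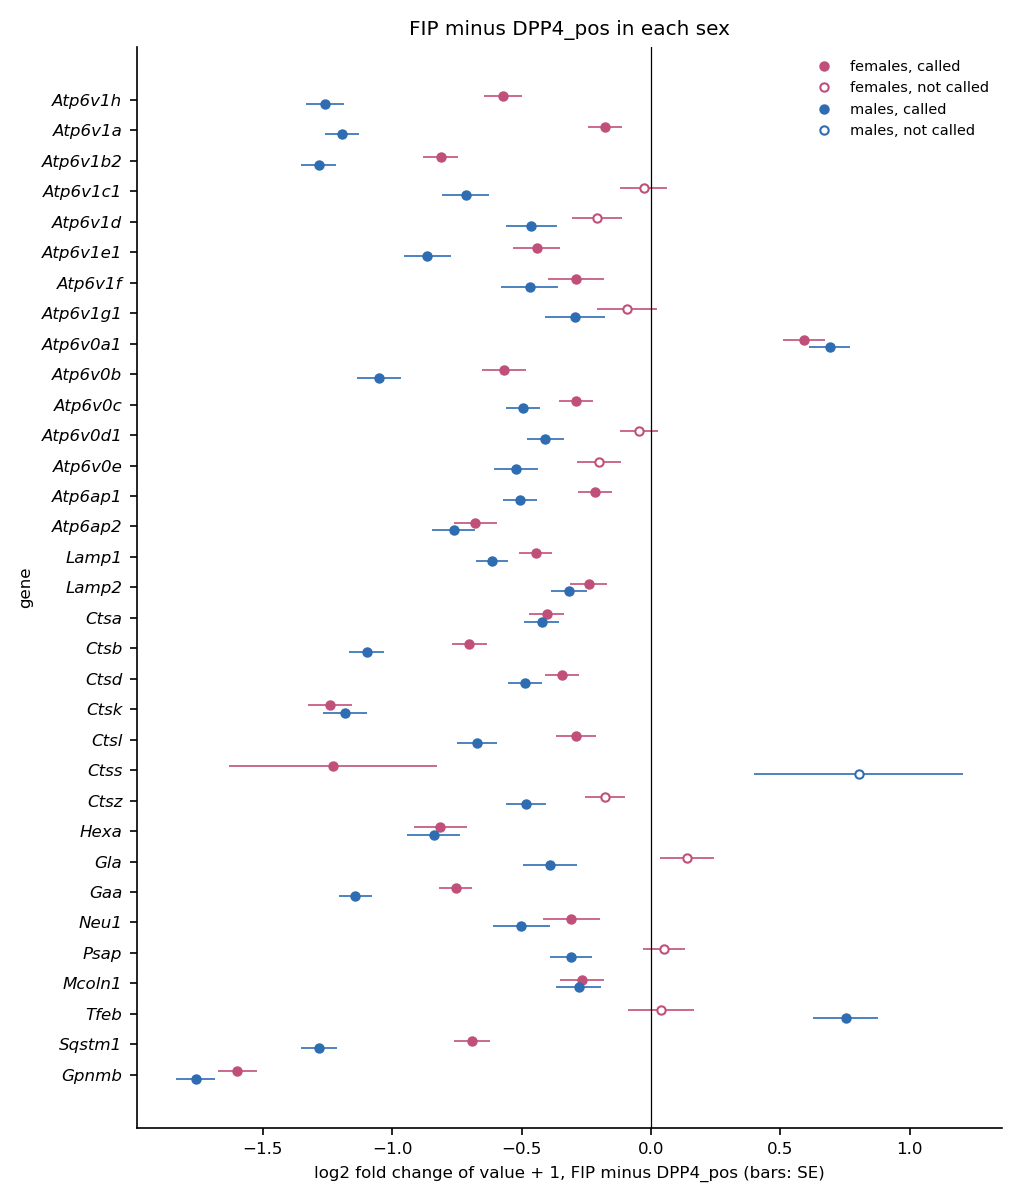
FIP minus DPP4_pos difference of each tested member (x axis, log2 of value + 1) in females and males, with bars for the SE and filled points for genes called by limma. Males lie further left for the V1 subunits, the widest gap being that of Atp6v1a, at -1.19 in males and -0.18 in females, while Ctsk and Gpnmb lie far left in both sexes.

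Whether the depot difference depended on sex was tested as the male minus female difference of FIP minus DPP4_pos. Of the 33 members 16 were more negative in males and 2 more positive, against 19.2% and 15.7% of all genes. The V-ATPase genes led the negative ones, with Atp6v1a at -1.02 ± 0.09 (adjusted p = 7.66e-09), Atp6v1h at -0.69 ± 0.10 and Atp6v1c1 at -0.69 ± 0.13, followed by Sqstm1 at -0.59 ± 0.10. Ctss (2.03 ± 0.57) and Tfeb (0.71 ± 0.18) were the positive ones, and 9 of the 13 macrophage markers were positive too. Ctsk and Gpnmb, with large depot differences, did not pass this test (0.06 and -0.16). The count fell to 8 under quantile normalisation and under equal totals. The same test of FIP minus APC called 4 members more positive and 1 more negative in males, against 5.46% and 5.33% of all genes: Gla at 0.74 ± 0.15, Atp6v0c, Lamp1 and Atp6ap1 on 1 side, and Atp6v0a1 at -0.42 ± 0.11 on the other. It called 3 without replicate 2 of F_APC, replicate 2 of F_FIP, replicate 3 of M_APC or replicate 1 of M_FIP.

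M_DPP4_neg was the group behind the choice of the genes, and its comparisons are given as levels only. Atp6v1h, whose level chose that group, is counted in each of them as higher in M_DPP4_neg, and nothing is read from the counts. Between the sexes in DPP4_neg cells 23 of 33 members had all 3 male libraries above the female ones and 3 had them below, where 26.8% and 30.0% of all genes did. Gpnmb was at 6544, 6164 and 6515 in M_DPP4_neg, 3.81 times the mean of F_DPP4_neg. Atp6v1b2 was at 4211, 4235 and 4554, 2.85 times that mean, and Atp6v1a at 3339, 3558 and 3806, 2.55 times. For APC minus DPP4_neg of males 28 members were separate and lower and 2 separate and higher, where 33.0% and 33.2% of all genes were. Ctsk was at 15471, 13116 and 13035 in M_DPP4_neg, and the mean in M_APC was 0.234 of that. For DPP4_pos minus DPP4_neg of males 7 were separate and higher and 15 separate and lower, where 27.1% and 26.9% of all genes were. Ctsk (-1.45 on the log2 scale), Ctss (-1.45) and Gpnmb (-1.27) had the largest lower values there and Atp6v1e1 the largest higher one (0.89), while Atp6v1a and Atp6v0b were at -0.07 and 0.05 and overlapped. The epithelial markers, at 10517 to 25463 in F_DPP4_neg and 41.9 to 78.1 in M_DPP4_neg, move with the comparison of the sexes in DPP4_neg cells, and the adipocyte markers summed to 2257 to 2935 in M_DPP4_neg against 235 to 387 in M_DPP4_pos; their part was not tested.

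Further genes of the pathway were taken from 5 lists with 152 genes, 145 of them tested. In FIP minus DPP4_pos of males 23 of 38 other lysosomal hydrolases were lower and 9 higher, where 32.4% and 32.6% of all genes were. Lgmn, an asparaginyl endopeptidase, was at -2.87 ± 0.10, and Acp5, the tartrate-resistant acid phosphatase, at -2.18 ± 0.22. Females had 26 lower and 3 higher (all genes 22.6% and 22.1%), with Lgmn at -1.24 ± 0.10. The 29 other membrane and sorting genes had no such lean, with 10 higher and 10 lower in males and 10 and 8 in females. Among them Tpcn2, an endolysosomal cation channel, was at -2.45 ± 0.11 in males, and Laptm4b, a lysosomal transmembrane protein, at 1.97 ± 0.13. These splits moved with the scaling: under equal totals the hydrolases had 15 higher and 13 lower in males and 6 and 18 in females, and the membrane and sorting genes 17 higher and 5 lower in males and 15 and 6 in females. The shares of all genes under equal totals are not set beside these counts.

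The 14 other V-ATPase subunits and assembly factors were mainly isoforms. Of these, 5 were higher and 2 lower in male than in female DPP4_pos cells, where 27.1% and 25.5% of all genes were. Nothing is read from counts of so few genes. Tcirg1, the a3 isoform of the V0 a subunit, was at 1.02 ± 0.08 there and at -1.38 ± 0.08 in FIP minus DPP4_pos of males, the opposite of Atp6v0a1 in both. Atp6v1b1, the B isoform of kidney and other epithelia, was at -4.23 ± 0.53 in DPP4_pos minus DPP4_neg of females, where all 10 epithelial markers were lower. That the epithelial markers account for it was not tested.

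Of 23 genes of the MiT/TFE and mTORC1 nutrient-sensing machinery, 9 were higher and 5 lower in male DPP4_pos cells, where 27.1% and 25.5% of all genes were, so that the lower calls were near the share of all genes. Fnip2, a partner of folliculin, was at 2.26 ± 0.13, Rragd, a Rag GTPase that recruits mTORC1 to lysosomes, at 1.45 ± 0.29, and folliculin itself (Flcn) at 1.10 ± 0.11. In FIP minus DPP4_pos of males Fnip2 was at -3.19 ± 0.13 and Rragd at -1.89 ± 0.29, with 10 of the 23 lower and 5 higher. Of 41 autophagy genes 20 were higher and 11 lower in male DPP4_pos cells, the lower calls again near the share of all genes, among them Atg2a, a lipid transfer protein of the growing autophagosome, at 1.17 ± 0.10. In FIP minus DPP4_pos of males 12 were higher and 18 lower (all genes 32.6% and 32.4%), with the receptor Optn at -1.27 ± 0.10 and the lipid kinase Pik3c3 at 1.05 ± 0.10. Both lists turned with the scaling in this depot comparison: under equal totals 21 autophagy genes were higher and 7 lower, and 13 nutrient-sensing genes were higher and 9 lower. For the sexes in DPP4_pos cells, equal totals gave 14 higher and 12 lower autophagy genes and 7 higher and 8 lower nutrient-sensing genes. Counts of both lists under equal totals have no share of all genes under that scaling beside them.

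Among the listed hydrolases the sexes differed in gonadal cells in Ctsc, a dipeptidyl peptidase that activates serine proteases, at 2.93 ± 0.15 in APC and 1.97 ± 0.15 in FIP, where Lgmn was at -1.26 ± 0.10 and -1.04 ± 0.10. The hydrolases had 5 higher and 19 lower in male APC (all genes 22.4% and 22.1%). Macrophage markers, which moved with Ctsc in FIP (11 of 13 higher in males), had 2 higher and 0 lower in male APC, and their part was not tested. Mitf, a relative of Tfeb, was at -0.89 ± 0.10 in APC and -0.82 ± 0.10 in FIP, opposite in sign to Tfeb. Between FIP and APC, the sorting receptor Sort1 was at -2.18 ± 0.16 in females and -1.20 ± 0.16 in males, and Atp6v0e2, an isoform of the V0 e subunit, at 2.36 ± 0.19 and 1.55 ± 0.19.

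As a description over 24 libraries, which share their groups, the 5 named genes whose log2 levels were most like those of Atp6v1h were Nars (Pearson r 0.979), Tars (0.973), Cdc34 (0.972), Pcnx4 (0.969) and Riok3 (0.967). Nars and Tars encode cytosolic aminoacyl-tRNA synthetases. Among the members, Atp6v1b2 (0.966), Sqstm1 (0.965) and Atp6ap2 (0.944) came nearest, Tfeb was at 0.18, Lamp2 at -0.01 and Atp6v0a1 at -0.46. The median was 0.73 over the 32 other tested members and -0.01 over all tested genes. The M_DPP4_neg libraries, whose Atp6v1h level chose the members, enter each r, and the members were completed with earlier results known. Nothing is read from these medians. The protein-coding neighbours of Atp6v1h did not share its pattern as a block: Lypla1, on the side of lower coordinates, had a mean of 255 in M_DPP4_neg and 426 in F_APC, Tcea1 had 458 and 577, and Rb1cc1, on the other side, had 1392 and 895. Rgs20 had means of at most 16.5, and Oprk1 and Npbwr1 had means below 1 in every group.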

How the data were processed

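The deposited table gives 1 normalized signal per gene and library. Per the submitters' processing notes, reads were handled with DESeq2 1.6.3, featureCounts 1.4.6, HISAT2 2.0.1 and Trim Galore 0.4.1 on GRCm38 (mm10). Their roles, the annotation and the strand setting are not given in the sources used here, so reads of overlapping genes on opposite strands cannot be told apart. Every deposited value (100% in each library, tolerance 0.01 read) was a whole number of 1 smallest step, so that reads, 9152470 to 18221692 per library, could be recovered. Rows without a symbol took at most 0.0765% of reads.

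Values were tested with limma 3.58.1 (R 4.3.3) on log2(value + 1), with 1 mean per group, a mean-variance trend and all 24 libraries, and Benjamini-Hochberg adjustment over 14517 genes. The log2 scale understates the change of low genes. The script was tested on simulated data. For the alternatives, edgeR 4.0.16 and DESeq2 1.42.0 were run on recovered reads. The members and the gene lists were chosen with earlier results of these data known. All members may be named. Library values are shown for Atp6v1h and, per comparison, for up to 4 called members of largest difference without overlap, and up to 3 called genes were named per pathway list. Other pseudocounts, filters and scalings, a replicate block and leaving out each library were tried. Gene positions are from RefSeq (GRCm38.p6, 93.0% of identifiers matched) and exon lengths from GENCODE M21.

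Replicate numbers are shared across groups by name only. In DPP4_pos and DPP4_neg cells of females the deviations of equally numbered libraries correlated at 0.13, 0.20 and 0.10, all over 0.1. There the numbers were tried as pairs in an alternative fit, from the data and not from the labels. The differences and p-values given for that comparison come from the fit without pairs. The paired fit of these libraries alone kept 9 of its 13 calls and lost 4. No other comparison had all 3 above 0.1.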

Additional observations from a re-analysis of the deposited data

Results flagged for a closer look

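The following members had a difference between subpopulations that itself differed between the sexes, by limma's test of the difference of differences (Benjamini-Hochberg adjusted over all genes). For FIP minus APC, the male minus female difference was 0.74 for Gla, 0.36 for Atp6v0c, 0.31 for Lamp1, 0.28 for Atp6ap1 and -0.42 for Atp6v0a1. Of 22 alternatives, the Atp6ap1 call was kept in 10, the Lamp1 call in 17 and the other calls in all. Gla fell from APC to FIP in females (-0.75) and was at -0.02 in males.

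For FIP minus DPP4_pos, the V-ATPase genes were more negative in males: Atp6v1a -1.02, Atp6v1h -0.69, Atp6v1c1 -0.69, Atp6v0b -0.48, Atp6v1b2 -0.47, Atp6v1e1 -0.42, Atp6v0d1 -0.36, Atp6v0e -0.32 and Atp6ap1 -0.29. The enzymes were at -0.53 for Gla, -0.40 for Ctsb, -0.39 for Gaa, -0.38 for Ctsl, -0.36 for Psap and -0.30 for Ctsz, and Sqstm1 was at -0.59. Ctss (2.03) and Tfeb (0.71) were more positive in males. Of 22 alternatives, the Atp6v0e call was kept in 7, the Ctsz call in 11 and each other call for FIP minus DPP4_pos in 19 or more.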

How the results depend on the processing

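Of 194 called member differences, 194 kept their call and direction with a pseudocount of 0.5 or a filter of 50, 193 with a pseudocount of 10, 191 with DESeq2, 190 with the replicate block, 187 with the libraries of the comparison only, 184 with edgeR, 180 without a filter, 146 with quantile normalisation and 140 with equal totals, an alternative chosen after seeing the data. Signs changed only under the 2 scalings. Under quantile normalisation, DPP4_pos minus DPP4_neg of females became -0.0196 for Lamp1, -0.17 for Lamp2, -0.10 for Ctsl and -0.20 for Sqstm1, the sexes in APC 0.00024 for Ctsd, APC minus DPP4_neg of females -0.0477 for Ctsl, and FIP minus DPP4_pos 0.0550 for Lamp2 in females and 0.0925 for Lamp2 and 0.13 for Psap in males. Under equal totals, FIP minus DPP4_pos of males became 0.0845 for Atp6v1g1, 0.0629 for Lamp2, 0.10 for Mcoln1 and 0.0706 for Psap.

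The count of called members became 18 under equal totals for FIP minus DPP4_pos of males, 8 under quantile normalisation and under equal totals for the sex difference of FIP minus DPP4_pos, and 3 under quantile normalisation for that of FIP minus APC. The split of higher and lower calls moved by over 10 percentage points in other comparisons too: under quantile normalisation to 1 and 14 for DPP4_pos minus DPP4_neg of females, 13 and 5 for the sexes in DPP4_pos cells, 6 and 11 for APC minus DPP4_neg of females and 1 and 13 for FIP minus APC of males, and under equal totals to 2 and 13 for DPP4_pos minus DPP4_neg of females, 11 and 4 for the sexes in APC, 15 and 4 in FIP, 3 and 15 for FIP minus DPP4_pos of females and 2 and 10 for FIP minus APC of males. edgeR gave 8 and 7 for DPP4_pos minus DPP4_neg of females. None of these counts has the share of all genes under the same setting beside it, so they cannot be weighed against that share. The cause was not tested.

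Leaving out 1 library, the counts ranged from 31 to 32 for FIP minus DPP4_pos of males, 20 to 23 in females, 18 to 22 for the sexes in DPP4_pos cells, 17 to 18 in APC and 12 to 16 in FIP, 13 to 17 for FIP minus APC of females and 10 to 11 of males, 12 to 14 for DPP4_pos minus DPP4_neg and 14 to 17 for APC minus DPP4_neg of females, 16 to 18 for the sex difference of FIP minus DPP4_pos and 3 to 6 for that of FIP minus APC. Atp6v1h in M_DPP4_neg minus the other groups ranged from 1.51 to 1.66, and was 1.43 under quantile normalisation. With the replicate block over all libraries the counts were 13 for DPP4_pos minus DPP4_neg, 16 for FIP minus APC, 24 for FIP minus DPP4_pos and 18 for APC minus DPP4_neg of females, 10 for FIP minus APC and 32 for FIP minus DPP4_pos of males, and 19, 16 and 21 for the sexes in APC, FIP and DPP4_pos cells. The block within the libraries of DPP4_pos minus DPP4_neg of females gave 10, losing 4 of 13 calls. Of 2639 values of named pathway genes under alternatives, 2564 kept their call and 75 lost it. Depth limits Atp6v0d2 and Ctss.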
